A study of Mus musculus with 2 samples.

Results

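The genes described here are the Abl tyrosine kinases Abl1 and Abl2 and 8 genes that work with them on the actin cytoskeleton: the adaptors Crk and Crkl, the Abl interactors Abi1 and Abi2, the WAVE proteins encoded by Wasf1 and Wasf3, the gene Arhgap35, whose product switches off a small GTPase, and the cortactin gene Cttn. They are listed by name, with no threshold on a measured value but with earlier results of these data known, and all 10 were among the 30223 genes of the deposited table. Below, the 9 genes other than Abl1 are called its partners. The cells came from the hippocampus of C57Bl.6/J mice that were homozygous for the knock-in allele Pigv341E or were wild-type controls. Both hippocampi of 4 mice per genotype were broken up mechanically at low temperature, and the cells were pooled, so that each genotype was 1 library, with 7094 wild-type and 8836 knock-in cells. The labels used here give neither the age nor the sex of the mice. With 1 library each, genotype cannot be told apart from library, no test between the genotypes could be made, and the spread between mice is unknown. The series title names Abl1, and the question asked here was whether its partners moved with it.

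Abl kinases are cytoplasmic tyrosine kinases that pass signals from surface receptors to the cytoskeleton. In neurons they act on growth cones, dendrites and synapses. Crk and CrkL link phosphorylated docking proteins to Abl and to activators of small GTPases. The Abl interactors are subunits of the WAVE complex, which switches on the Arp2/3 complex to grow branched actin. The product of Arhgap35 is a GTPase-activating protein that acts on the cytoskeleton, and cortactin binds and stabilises branched actin. The last pair of proteins are substrates of the Abl kinases. Pigv, the edited gene, encodes a mannosyltransferase that helps build the lipid anchor of many surface proteins.

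The sequences before transcription starts of the kinase genes are shown because Abl1 differed between the libraries. Over all cells its close relative Abl2 did not by more than 0.13 on the log2 scale, though by class its ratio ran from −0.29 to 0.28. Each run is the 250 bases before a start in RefSeq on GRCm38.p6, written 5′ to 3′, with capitals marking each GC box, GGGCGG or its reverse complement CCGCCC. The Abl1 sequence lies at chr2:31759689-31759938 and the Abl2 sequence at chr1:156558537-156558786, both on the plus strand. The Abl1 sequence precedes a RefSeq start that lies inside the Abl1 span of GENCODE, which begins at chr2:31688376, and the sequence before that upstream start is not shown.
Abl1: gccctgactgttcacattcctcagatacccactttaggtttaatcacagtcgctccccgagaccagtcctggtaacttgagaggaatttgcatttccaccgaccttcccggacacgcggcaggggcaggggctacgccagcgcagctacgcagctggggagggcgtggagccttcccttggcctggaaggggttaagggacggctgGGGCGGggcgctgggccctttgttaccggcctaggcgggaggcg
Abl2: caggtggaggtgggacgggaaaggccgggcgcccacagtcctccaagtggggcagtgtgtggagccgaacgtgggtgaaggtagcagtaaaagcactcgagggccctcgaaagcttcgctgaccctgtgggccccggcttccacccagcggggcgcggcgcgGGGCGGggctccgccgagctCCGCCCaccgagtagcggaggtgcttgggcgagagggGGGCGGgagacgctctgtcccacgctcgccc
The Abl1 sequence held 1 GC box and a GC content of 63.2%, and the Abl2 sequence held 3 GC boxes and a GC content of 71.6%. RefSeq also gives Abl1 a start further downstream, whose sequence of the same length held 1 GC box. Windows were found for 8 of the 10 genes, and those of 5 genes held a GC box: Abl1, Abl2, Crk, Wasf1 and Arhgap35. Those of Crkl, Abi1 and Wasf3 held none. Of all 32851 windows of this length, 32.7% held a GC box on either strand. The letters TATAAA, read on both strands, were in none of the windows of these 8 genes and in 12.4% of all windows. These are matches of letters and say nothing of which factors bind there.

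The table held depth-corrected whole numbers, with a total per cell between 4846 and 14501 and a median of 8631 in wild-type and 9608 in knock-in cells. Wild-type cells had a median of 3122 genes above 0 and knock-in cells 3736, and mitochondrially encoded transcripts made up a median of 0.123% and 0.219% of a cell's total. The part of these differences in the results below was not tested. A level is a gene's summed values as a share of the cells' summed totals, per 10000. Ratios are given on the log2 scale as knock-in over wild-type levels, each raised by 0.1, which makes low genes look less changed. Levels serve to compare cells and libraries, not genes, since they were not divided by transcript length. The cells fell into 36 clusters, 14 of which, with 1030 wild-type and 1516 knock-in cells, matched no cell type by the marker rule and stayed unnamed. Of the classes named from markers, 11 had at least 50 cells in each library. Cell type names below stand for such classes, whose cells are like the named type by their markers alone (pyramidal neuron-like, astrocyte-like and so on). The markers held for most clusters of these classes, for example 10 of 10 for the dentate granule neurons of the hippocampus and 12 of 12 in the larger astrocyte cluster. The weakest name was that of pyramidal cluster 3, which had 3 of 14 markers in 143 wild-type and 510 knock-in cells. Interneuron cluster 6, with 8 of 14 markers, was led by 6330411D24Rik, Lef1 and Otx2os1. In all, 28 cell barcodes occurred in both libraries, and without those cells the Abl1 ratio over all cells was −2.71, the same as with them. Pigv itself had a value above 0 in 6.37% of wild-type and 7.89% of knock-in cells, too few to describe, and since an edited allele can still be transcribed its level does not check the labels.

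Abl1 was far lower in the knock-in library, and no partner was. Over all cells its level was 8.995 per 10000 for wild-type against 1.29 for knock-in cells, 6.97-fold lower, with a log2 ratio of −2.71. Of 7842 genes whose level averaged 0.2 or more over the libraries, 8 had a ratio of −0.5 or less (0.102%), and Abl1 was 1 of 5 at −1 or less (0.0638%). Only Gm16427 had a lower ratio, at −2.88, and its wild-type level was 0.652. Among the 2001 genes averaging 1 or more, Abl1 had the lowest ratio. In that range 5 genes (0.250%) had a ratio of at least 1 in size: Abl1, Sec22b at −1.12, Rab40b at 1.06, Hdc at 4.08 and Gm14216 at 4.11.

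The Abl1 difference was spread over the cells and did not come from a few cells of very high value. A value above 0 was recorded in 99.1% of wild-type cells (exact Clopper-Pearson 95% interval 98.8 to 99.3) and 56.9% of knock-in cells (55.9 to 58.0). These intervals cover counting error only. The median wild-type cell had a value of 7, with quartiles of 4 and 11 and a highest value of 50. The median knock-in cell had a value of 1, with quartiles of 0 and 2 and a highest value of 15. When every cell was cut at random to a total of 1000, Abl1 was seen in 55.7% of wild-type and 11.9% of knock-in cells. Since the values are depth-corrected, a 1 may not stand for a molecule that was seen, and the true sequencing depth of a cell is unknown.

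**Figure D1:**
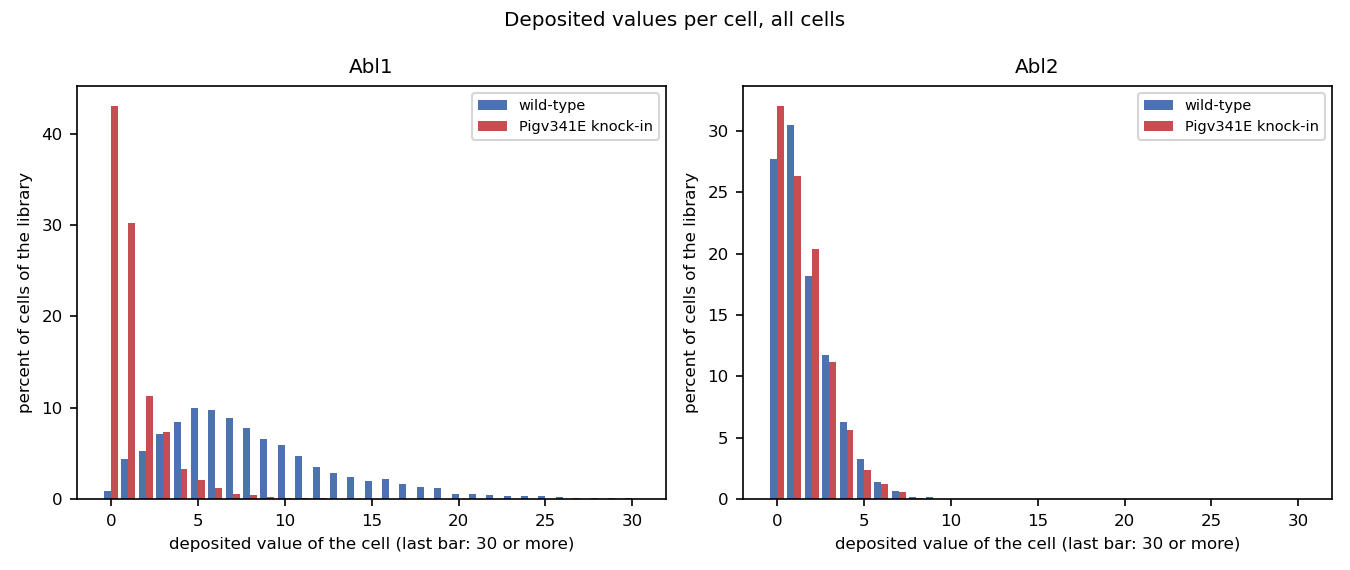
Percent of the cells of each library (y axis) at each deposited value of Abl1 and Abl2 (x axis), with blue bars for the 7094 wild-type and red bars for the 8836 knock-in cells. For Abl1 the knock-in bars crowd at 0 to 2 around a median of 1 while the wild-type bars centre on a median of 7, and for Abl2 the bars of both libraries lie beside each other around a median of 1.

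Every class had less Abl1 in the knock-in library, but the size differed between cell types. Pyramidal neurons had the lowest ratio, with a level of 7.60 in wild-type and 0.425 in knock-in cells, 17.9-fold lower (log2 ratio −3.87). Astrocytes, which had the highest wild-type level, went from 15.6 to 1.26, 12.3-fold lower. Dentate granule neurons, the principal neurons of the dentate gyrus, stood at 6.83 and 0.740, 9.23-fold lower. The order of the classes was not kept: in the knock-in library astrocytes stood below mature oligodendrocytes, microglia, fibroblasts and immature neurons.

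Microglia, the resident immune cells, had the smallest difference, with 7.53 in wild-type and 2.61 in knock-in cells, 2.89-fold lower. Mature oligodendrocytes, the myelinating cells, kept the highest knock-in level, with 13.3 in wild-type and 2.92 in knock-in cells. In the other classes the log2 ratio was −3.05 in Cajal-Retzius cells, −3.02 in interneurons, −2.53 in fibroblasts, −2.37 in oligodendrocyte precursors, −2.31 in choroid plexus epithelium and −1.72 in immature neurons. Of 3055 genes above the level limit in every class, 101 (3.31%) were lower in the knock-in library in all 11 classes, and 2 of them had a ratio of −0.5 or less in each (0.0655%). These were Abl1 and Sec22b, the latter chosen after its values were seen. Abl1 was the only one of the 10 genes that was lower in all 11 classes.

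The share of cells with any Abl1 also separated the cell types in the knock-in library. There, 32.1% of pyramidal neurons (29.9 to 34.5) had a value above 0, against 93.7% of mature oligodendrocytes (92.3 to 94.9) and 85.0% of microglia (82.4 to 87.3). In the wild-type library the shares of these classes were all above 99%, at 99.5%, 99.9% and 99.4%. The median total per cell in the knock-in library was 10005 in pyramidal neurons, 8132 in mature oligodendrocytes and 7877 in microglia. These totals are sums of depth-corrected values, and the part of sequencing depth in the shares was not tested. After thinning, the knock-in shares were 4.71% in pyramidal neurons, 24.5% in mature oligodendrocytes and 20.2% in microglia, in the same order.

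All 26 clusters with at least 50 cells in each library had less Abl1 in the knock-in library, with log2 ratios from −4.72 to −1.41 and a median of −3.05. The lowest was pyramidal cluster 23, which held 7 of 14 pyramidal markers and stood at 10.1 in wild-type and 0.286 in knock-in cells. The smallest difference was in microglial cluster 15, at 9.38 and 3.48. Another microglial cluster, number 5, had a ratio of −2.13, and pyramidal clusters 4 and 3 had ratios of −3.69 and −3.27. The clusters of a class could thus differ among themselves, and without replicate libraries the error of such a difference is unknown.

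**Figure D2:**
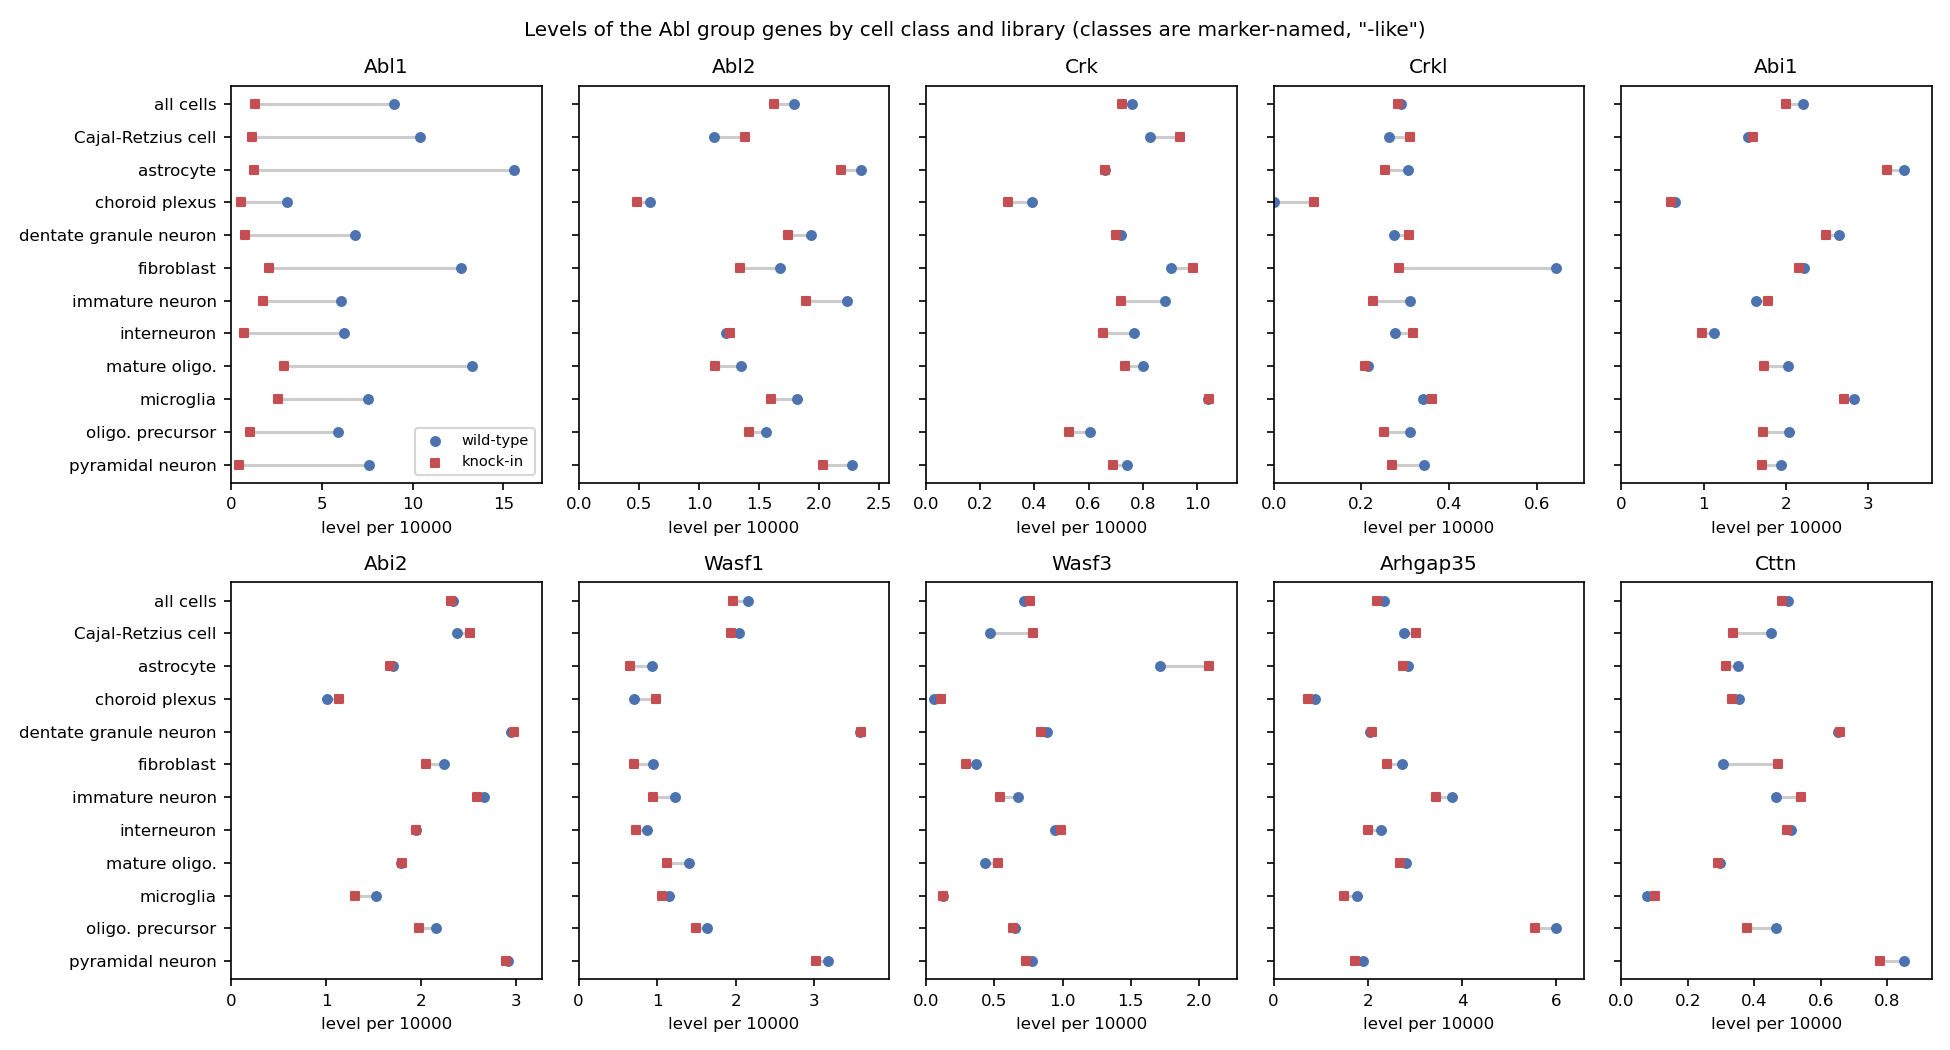
Level per 10000 (x axis, scaled for each gene) of the 10 genes in all cells and in each of the 11 classes (y axis), with blue circles for the wild-type and red squares for the knock-in library, joined by grey lines. In the Abl1 panel each red square lies left of its blue circle, with all cells at 8.995 and 1.29, while in the panels of the partners the paired points lie close together.

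Over all cells Abl2, the closest relative of Abl1, did not show this difference, nor a higher level in its place. By cluster, over 26 clusters, the Abl2 ratio ran from −0.36 to 0.31. Its level was 1.79 in wild-type and 1.63 in knock-in cells (log2 ratio −0.13), and 885 of 7842 genes had a lower ratio. Values above 0 were found in 72.3% of wild-type and 67.9% of knock-in cells, and values of 2 or more in 41.9% and 41.6%. By class its ratio ran from −0.29 in fibroblasts to 0.28 in Cajal-Retzius cells and was below 0 in 9 of 11 classes. Depending on the class, 37.0% to 53.2% of all genes tested were below 0. In pyramidal neurons, where Abl1 was lowest in the knock-in library, Abl2 stood at 2.27 and 2.04. The makeup of that class differed: cluster 3, with an Abl2 level of 1.40 and 1.38, held 11.9% of its wild-type and 31.2% of its knock-in cells. Within pyramidal clusters 3, 4 and 23 the Abl2 ratios were −0.01, −0.09 and 0.01. In astrocytes, where its level was highest in both libraries, it stood at 2.35 and 2.18, and in choroid plexus epithelium, where it was lowest in both, at 0.597 and 0.486.

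The adaptor genes differed little between the libraries. Crk, whose product joins Abl to docking proteins, had a level of 0.761 in wild-type and 0.722 in knock-in cells (log2 ratio −0.07). Its level was highest in microglia in both libraries, at 1.04 in each, and its ratios ran from −0.28 in choroid plexus epithelium to 0.16 in Cajal-Retzius cells. Crkl, which encodes the related CrkL, stood at 0.290 and 0.283 (log2 ratio −0.03). It was the sparsest of the group, with a value above 0 in 19.8% of wild-type and 20.6% of knock-in cells.

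Crkl had the most extreme ratio of any partner at the level limit, in fibroblasts, where 109 wild-type cells had a level of 0.644 and 247 knock-in cells a level of 0.285 (log2 ratio −0.95). In that class 5.18% of the genes tested were at −0.5 or less. In choroid plexus epithelium Crkl was listed at 0 in the 62 wild-type cells and at 0.0911 in the 70 knock-in cells, under the level limit, so no ratio is read from it.

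The Abl interactor genes kept their cell type pattern in both libraries. Abi1, which was first described as a binding partner of Abl, had a level of 2.21 in wild-type and 2.01 in knock-in cells (log2 ratio −0.13). Astrocytes had the highest Abi1 level in both, at 3.43 and 3.23, and the ratios ran from −0.23 in oligodendrocyte precursors to 0.12 in immature neurons. Abi2, its relative, stood at 2.34 and 2.32 over all cells (log2 ratio −0.01). Its level was highest in dentate granule neurons, at 2.95 and 2.98, followed in both libraries by pyramidal neurons at 2.92 and 2.89.

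Wasf1, which encodes the WAVE1 protein abundant in brain, was a gene of principal neurons here. Its level was highest in dentate granule neurons, at 3.58 in wild-type and 3.60 in knock-in cells, and next in pyramidal neurons, at 3.17 and 3.02. Within the pyramidal clusters its direction turned, with ratios of 0.05, 0.13 and 0.05 in clusters 3, 4 and 23, the first of which had a lower Wasf1 level, at 1.67 and 1.74. Over all cells it stood at 2.16 and 1.97 (log2 ratio −0.13). In astrocytes it was at 0.928 and 0.654 (log2 ratio −0.45), and in choroid plexus epithelium at 0.709 and 0.987 (log2 ratio 0.43), which were its lowest and highest ratios. In microglia, with a Wasf1 level of 1.14 and 1.06, 67.1% of wild-type cells had a value above 0 and 9.35% a value of 2 or more, against 94.6% and 80.1% of pyramidal neurons. Median totals per cell in the wild-type library were 7440 in microglia and 9939 in pyramidal neurons. No expression is read from a share above 0 in a class of such low values.

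Wasf3, which encodes WAVE3, was the only partner with a higher level in the knock-in library over all cells under every setting tried, at 0.713 in wild-type and 0.759 in knock-in cells (log2 ratio 0.08). Its level was highest in astrocytes, at 1.72 and 2.07. The values differed most in Cajal-Retzius cells, the early-born neurons of the outer hippocampal layer, where 63 wild-type cells had a level of 0.469 and 101 knock-in cells a level of 0.786 (log2 ratio 0.64). In that class 20.3% of genes tested were past 0.5 in either direction.

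Arhgap35 had its highest level in oligodendrocyte precursors in both libraries, at 6.00 in wild-type and 5.53 in knock-in cells. Next came immature neurons, at 3.78 and 3.44. Over all cells it stood at 2.35 and 2.18 (log2 ratio −0.10). Its ratio was below 0 in 9 of 11 classes, in which 37.0% to 53.2% of all genes tested were below 0. Over 26 clusters it ran from −0.44 to 0.12, with a median of −0.15. Cttn was highest in pyramidal neurons, at 0.849 and 0.777, and lowest in microglia, at 0.0773 and 0.103. Here too the direction turned within pyramidal clusters 3, 4 and 23, where the Cttn ratios were 0.02, 0.05 and 0.09, with a low level of 0.370 and 0.378 in cluster 3. Over all cells Cttn stood at 0.501 and 0.484 (log2 ratio −0.04), and in fibroblasts it was at 0.305 and 0.471, with a ratio just under 0.5.

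**Figure D3:**
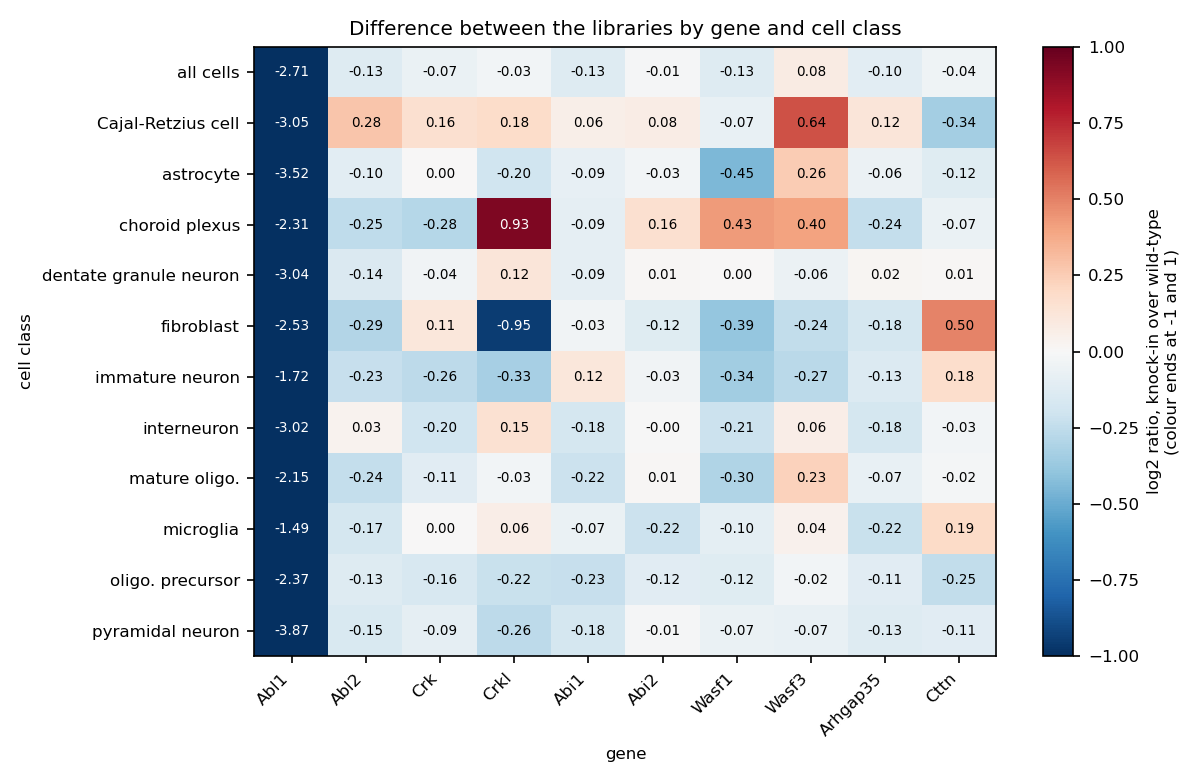
Log2 ratio of knock-in over wild-type for each gene (x axis) in all cells and in the 11 classes (y axis), with the value printed in each field and red for higher and blue for lower in the knock-in library; the colours end at −1 and 1. The Abl1 column is blue throughout, from −3.87 to −1.49, and the other columns are pale apart from single fields such as Crkl in fibroblasts at −0.95. Fields under the level limit are printed too, among them Crkl in choroid plexus epithelium at 0.93, from which no ratio is read.

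Read as a group, the partners lay within the spread of all genes. None of the 9 had a ratio of at least 0.5 in size over all cells, where 1.07% of all 7842 genes did. Their median was −0.07, with 8 of 9 below 0, against a median of 0.05 and 37.1% below 0 for all genes, of which the central 90% ran from −0.20 to 0.30. Level bears on this comparison. Among the 2001 genes averaging 1 or more, 73.4% were below 0 and the median was −0.08. The 5 partners in that range, Abl2, Abi1, Abi2, Wasf1 and Arhgap35, were all below 0 with a median of −0.13, and 3 of the 4 partners of lower level were below 0. Abl2, Crk, Abi1, Wasf1 and Arhgap35 were lower and Wasf3 higher in the knock-in library over all cells under the 10 alternative settings that can move such a ratio, while Crkl, Abi2 and Cttn took both signs. Within clusters the signs were less even for most partners. Among 26 clusters Arhgap35 was lower in 24, Crk in 20, Abi1 in 19, Abl2 and Crkl in 16 and Abi2 in 14. Wasf1, Wasf3 and Cttn were lower in 12 each. The share of all genes below 0 by cluster is not given here, so no result is read from these counts. Over 26 clusters the median ratio was −0.15 for Arhgap35, −0.10 for Crkl, −0.08 for Crk and Abi1, −0.07 for Abl2 and −0.02 for Abi2. It was 0.01 for Wasf1 and Cttn and 0.02 for Wasf3.

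Across classes, 2 of 95 pairs of a partner and a class at the level limit were past 0.5 in either direction: Wasf3 in Cajal-Retzius cells and Crkl in fibroblasts. The background differed by class. It was 3.23% in pyramidal neurons, 0.775% in dentate granule neurons, 3.30% in interneurons, 3.61% in astrocytes, 3.83% in mature oligodendrocytes, 4.38% in microglia and 6.59% in oligodendrocyte precursors, and no partner was past 0.5 in any of these classes. It was 21.4% in immature neurons and 19.7% in choroid plexus epithelium, small classes in which no partner at the level limit was past 0.5 either, and 12.2% in fibroblasts. The classes with a pair past 0.5 were thus among those where many genes were.

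**Figure D4:**
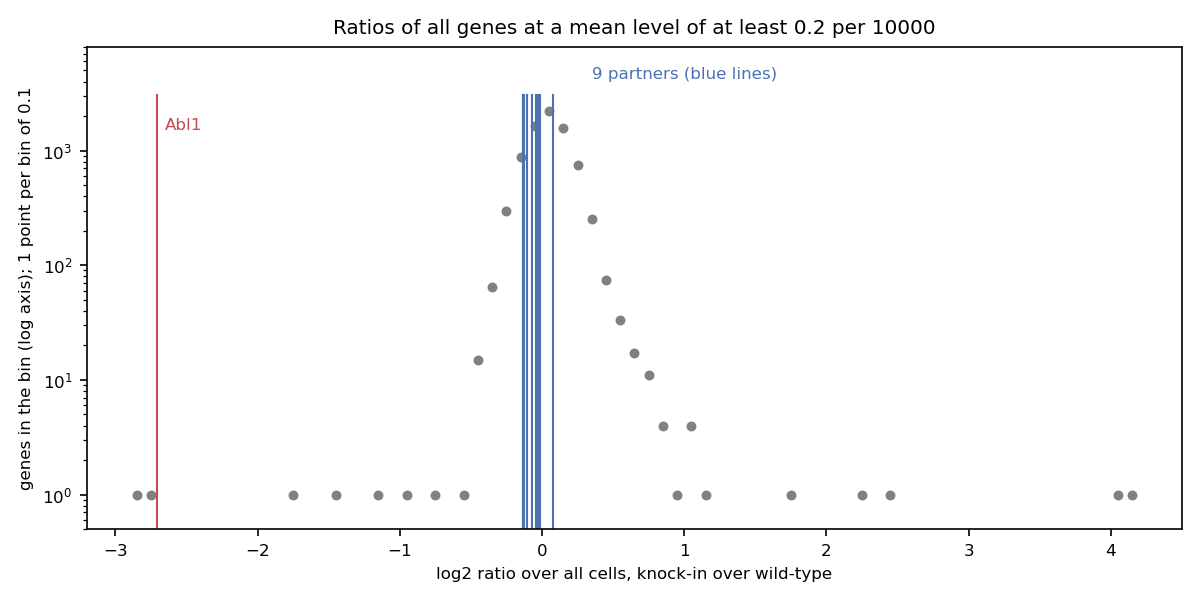
Number of genes per bin of 0.1 (y axis, log scale, 1 grey point per bin that holds a gene) against the log2 ratio over all cells (x axis) for the 7842 genes at a mean level of 0.2 or more, with vertical lines for Abl1 in red and its 9 partners in blue. The partners lie inside the central peak, and Abl1 stands at −2.71 among the lowest genes.

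The partners did not follow Abl1 from cluster to cluster. Pearson's r between the ratio of Abl1 and that of a partner, over 26 clusters that share both libraries, ran from −0.51 for Abl2 to 0.24 for Cttn, with a median of −0.08 over the 9. For 7998 genes the quartiles of this r were −0.12 and 0.19. The value for Abl2 is negative: clusters in which Abl1 was lower by more tended to have less of a difference, or a higher level, in Abl2. It is a description of 26 points with 2 libraries behind them, and r was −0.40 over the 11 classes.

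Within each library the levels of a few partners did run with that of Abl1. In the wild-type library r of log2 levels with Abl1 across the clusters was 0.66 for Abi1, 0.48 for Abl2 and 0.41 for Arhgap35, and lay between −0.08 and 0.26 for the others. In the knock-in library it was 0.50 for Abi1, −0.03 for Abl2 and 0.35 for Arhgap35, and it was 0.38 for Crk, −0.13 for Crkl, −0.33 for Wasf3, −0.40 for Wasf1, −0.47 for Abi2 and −0.65 for Cttn. Across these clusters Abi1 thus had the highest r of the partners in both libraries, while over the 11 classes of the knock-in library Crk had 0.60 and Abi1 0.50. For all genes the quartiles were −0.25 and 0.27 in the wild-type and −0.45 and 0.26 in the knock-in library.

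From cell to cell within a class, partners and Abl1 were close to unrelated. Outside choroid plexus epithelium the 90 values of r on log-normalised values, 9 partners in 10 classes, had a median of −0.01 in the wild-type library, with a range from −0.31 to 0.33, and a median of 0.00356 in the knock-in library, from −0.25 to 0.23. Sparse values hold such an r near 0. The exception was choroid plexus epithelium, with 62 and 70 cells, where r was 0.59 and 0.44 for Abi1 and 0.56 and 0.47 for Abl2. In those cells r with Abl1 was as high for Meg3, a long non-coding RNA of neurons that belongs to no actin pathway, at 0.58 and 0.59.

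Knock-in cells with and without any Abl1 could be set side by side inside classes with at least 50 cells of each kind. Among pyramidal neurons 1109 cells had an Abl1 value of 0 and 525 a value above 0, and the log2 ratio of partner levels, above 0 over 0, ran from −0.14 for Abl2 to 0.15 for Crkl. Among dentate granule neurons, with 639 and 516 cells, it ran from −0.15 for Abi1 to 0.13 for Crk. The Abl2 level in cells without and with Abl1 signal was 2.10 and 1.90 in pyramidal neurons, its ratio being the lowest of the partners there, and 1.77 and 1.70 in dentate granule neurons. The direction was not shared by all classes. The Abl2 ratio was 0.18 in microglia, 0.12 in astrocytes and 0.02 in mature oligodendrocytes. It was −0.48 in Cajal-Retzius cells, −0.32 in oligodendrocyte precursors, −0.19 in fibroblasts and −0.02 in interneurons. Other classes ranged more widely. In mature oligodendrocytes, with 92 and 1359 cells, the partner ratios ran from −0.003 for Cttn, the only one below 0, to 0.84 for Abi2. In microglia, with 129 and 731, they ran from −0.73 for Cttn to 0.80 for Arhgap35, with only Cttn and Wasf3 below 0. In oligodendrocyte precursors, with 172 and 129, they ran from −0.89 for Crkl to 0.26 for Crk. Astrocytes, with 388 and 428, ran from −0.26 for Wasf3 to 0.15 for Wasf1. Cajal-Retzius cells, with 51 and 50, ran from −0.65 for Abi2 to 0.42 for Crkl. Fibroblasts, with 66 and 181, ran from −0.41 for Wasf1 to 0.57 for Arhgap35. Interneurons, with 277 and 206, ran from −0.03 for Cttn to 0.37 for Crk. The ratios of all genes in this split are not given here, so no result is read from these signs. Cttn in microglia was low, at 0.204 and 0.0828. The cause was not tested.

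In the wild-type library the gene that moved with Abl1 was Malat1, an abundant long non-coding RNA held in the nucleus. Among 1991 genes with a wild-type level of at least 1, the genes most like Abl1 across the 26 clusters were Malat1 with r of 0.97, Sec22b with 0.94 and Ltn1 with 0.91. Malat1 itself was at 206 in wild-type and 259 in knock-in cells (log2 ratio 0.33). Meg3, another nuclear RNA, stood at 21.1 and 24.1 and had an r of −0.41 with Abl1 in the wild-type library. In the knock-in library r of Abl1 with Malat1 was 0.33, and the genes most like Abl1 there were Picalm with 0.92, Nipbl with 0.91 and Rnf13 with 0.91, over 28 clusters.

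The amount of Abl1 by which the libraries differed varied less between clusters when set against Malat1. Wild-type minus knock-in Abl1, per 100 of wild-type Malat1, lay between 2.88 and 5.05 in the 26 clusters, with a median of 4.17, a 1.76-fold range, while the wild-type Malat1 level spanned 7.31-fold, from 65.3 to 478. The r between that difference and Malat1 was 0.97. Wild-type Abl1 alone, per 100 of Malat1, had a range of 1.78-fold, so the difference, which is mostly the wild-type level, restates the wild-type relation. Abl1 left in the knock-in library varied 20.1-fold per 100 of Malat1, from 0.0927 to 1.86. Astrocytes, with a Malat1 level of 429, had a difference of 14.3, and choroid plexus epithelium, with 65.3, a difference of 2.55.

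Single cells of a class were then compared with each other. In the wild-type library r of Abl1 with Malat1 lay between 0.25 in microglia and 0.72 in choroid plexus epithelium, with a median of 0.56 over 11 classes. In the knock-in library it lay between −0.19 in pyramidal neurons and 0.58 in choroid plexus epithelium, with a median of −0.07. Outside choroid plexus epithelium the highest knock-in value was 0.14, in microglia. The cells of a library share its depth and preparation, and the part of Malat1 in the Abl1 result was not tested.

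**Figure D5:**
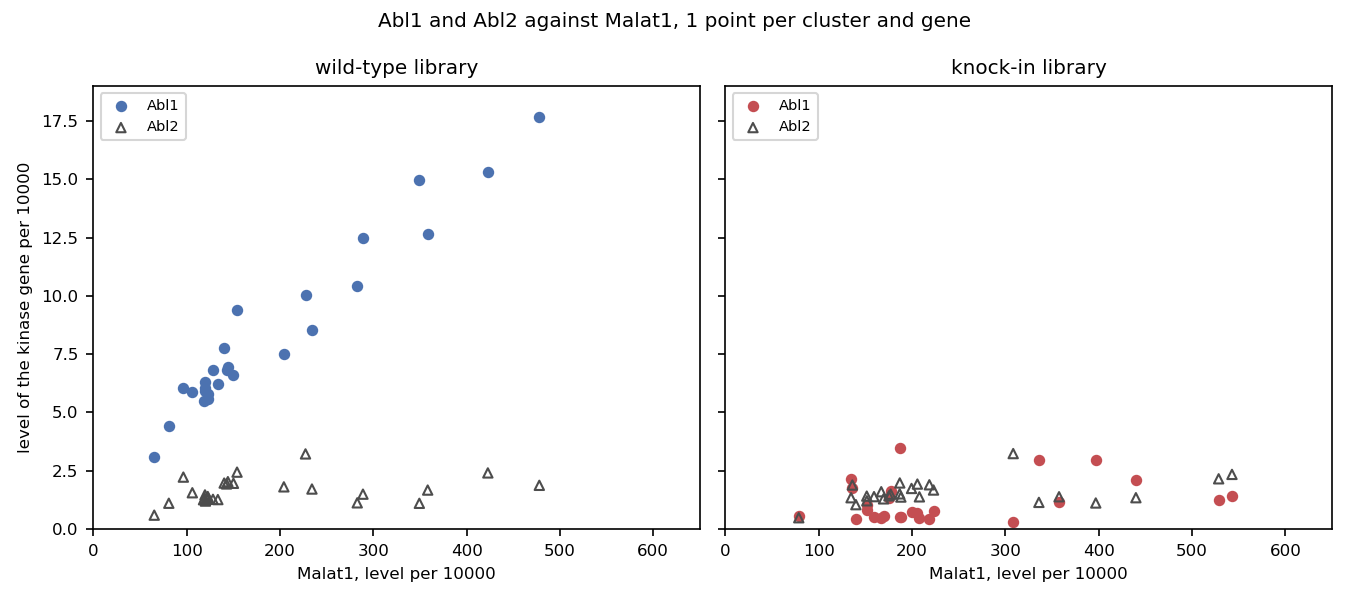
Level of Abl1 (filled circles) and Abl2 (open triangles) per 10000 (y axis) against the level of Malat1 per 10000 (x axis) in the wild-type library (left) and the knock-in library (right), 1 point per gene and cluster, 26 clusters. Abl1 climbs with Malat1 in the wild-type panel, with r of 0.97 on log2 levels, and lies low across the knock-in panel, where r is 0.33, while Abl2 stays within a like range in both.

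The partners each had other nearest genes in the wild-type library. Abl2 and Abi1 shared one, Fbxw11, with r of 0.80 and 0.88. Abi2 and Cttn shared Sptan1, which encodes a spectrin of the membrane skeleton, with r of 0.92 and 0.66. The nearest gene to Wasf3 was Enah, an actin regulator of the Ena/VASP family, with 0.82, and that to Wasf1 was Cnksr2, which encodes a scaffold protein of synapses, with 0.87. Rev3l was nearest to Arhgap35 with 0.85, Thada to Crkl with 0.79 and Rffl to Crk with 0.68. Malat1 was not among the 3 nearest genes of any partner.

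The wider pathway held no difference of the size seen in Abl1. Of 73 further genes around Abl and actin, 63 were at the level limit over all cells, none had a ratio of at least 0.5 in size, 34 were below 0 and the median was −0.04. For all genes tested 1.07% were past 0.5 and 37.1% below 0, with a median of 0.05, and at levels of 1 or more 73.4% were below 0. Of 6 tested genes of the WAVE complex 3 were below 0 (median 0.01). Of 14 genes of the Arp2/3 complex and cofilin control 4 were below 0 (median 0.09). Of 17 adaptors, docking proteins and regulators 12 were below 0 (median −0.11), and of 6 Src family and focal adhesion kinases 3 were (median −0.03).

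The 3 lowest of these genes were Ptk2b, the kinase Pyk2 of focal adhesions and synapses, Dab1, the adaptor of reelin signalling, and Gab1, a docking protein. Ptk2b stood at 2.82 and 2.29 (log2 ratio −0.29), Dab1 at 22.6 and 18.8 (−0.26) and Gab1 at 1.84 and 1.52 (−0.26). The 3 highest were Lyn, a Src family kinase of microglia, at 1.00 and 1.27 (0.31), Cables1, which links Cdk5 to Abl, at 0.666 and 0.816 (0.26), and Cfl2, an actin-severing cofilin, at 0.384 and 0.463 (0.22). Over all cells none of these 6 differences reached 1.5-fold. By class, with no level limit, Ptk2b ran from −0.63 to 0.55, Gab1 from −0.32 to 1.22 and Dab1 from −0.59 to −0.001. Lyn ran from −0.28 to 0.49, Cables1 from −0.62 to 1.23 and Cfl2 from 0.05 to 0.91. The libraries differed in cell makeup, with 239 wild-type and 483 knock-in interneurons for example. Of these, 82 wild-type and 229 knock-in cells lay in cluster 6, which was led by genes outside the interneuron markers. The part of cell makeup in the ratios over all cells was not tested. Of 40 pathway genes at the level limit in every class, 5 were lower in all 11 classes, against 3.31% of all genes: Dab1, Cbl, Rock1, Pak3 and Sos1, all but Dab1 named after their values were seen. Their ratios over all cells ran from −0.26 for Dab1 to −0.05 for Pak3. Their wild-type levels ran from 1.11 for Cbl to 22.6 for Dab1. At levels of 1 or more, 73.4% of genes were below 0 over all cells. The share of 3.31% is not matched for level, so no result about the pathway is read from this count. Only Cfl2 was higher in all 11, against 2.00% of all genes.

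In GENCODE M21 on GRCm38, Abl1 spans chr2:31688376-31804227 on the plus strand and Abl2 chr1:156558786-156649568, also plus. The antisense gene Gm13427 overlaps Abl1, and its level was 0.0473 in wild-type and 0.0518 in knock-in cells, under the level limit, so no direction is read from it. Pdss1 overlaps Abi1 on the other strand, at 0.437 and 0.452, and Gm17826 and Gm29443 overlap Arhgap35, both under 0.05. Whether counting used the strand is not given in the sources used here, so reads of such pairs may not be told apart.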

How the data were processed

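One droplet library per genotype (10x Genomics Chromium) was sequenced on the same lane, per the labels. The authors deposited 1 table of whole numbers, treated here as a score: depth-corrected values, not raw counts, as the narrow range of totals per cell shows. Seurat 3.0.0 and GRCm38 are named in the submitters' processing notes. The aligner, the filter on cells and any doublet removal are not given in the sources used here.

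Cells of both libraries were clustered with scanpy 1.11.5 (2000 variable genes without the 10 genes or sex-linked genes, 30 principal components, 15 neighbours, Leiden resolution 1). None of the 10 genes was variable enough to enter when allowed, so clusters were the same. Markers counted for a cluster when found in 25% of its cells or more at 1.5-fold the level elsewhere. The class with most of them, 3 or more, gave the name unless another class came close. The markers, the 10 genes, the pathway lists and the naming rule were chosen with earlier results of these data known. Doublets were kept. Named genes are the 10, the 3 highest and 3 lowest pathway genes among those at the level limit, the 3 genes most like each of the 10 (1 or more shown), genes past 1 at a mean level of at least 1, Malat1, Meg3 and Pigv; others are named beside their counts. Ratios, levels and calls were tested on simulated data. Shares carry exact Clopper-Pearson 95% intervals. Genes were matched by symbol to GENCODE M21. The result of 1 pathway list is not reported here.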

Additional observations from a re-analysis of the deposited data

How the results depend on the processing

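The Abl1 ratio over all cells was −2.13 with a pseudocount of 1 and −3.08 with values of 1 set to 0. It moved by less than 0.2 under 8 of the 10 settings that can move it; the other 3 change only the clusters and leave it as it is by construction. Over all classes and settings it lay between −4.88 and −1.24. No partner passed 0.5 over all cells under any setting, and the largest partner ratio was 0.18 in size. The pairs of a partner and a class past 0.5 numbered 2 of 95; they were 0 with a pseudocount of 1, 9 of 86 with values of 1 set to 0, 4 without the 61 wild-type and 209 knock-in cells that Scrublet called, and 0 of 50 at a mean level of at least 1. The share of all genes by class under these other settings is not given here, so no result about the partners is read from the change in these counts. Over all cells, all genes past 0.5 numbered 84, and 159 with a pseudocount of 0.01, 16 with 1 and 24 at a mean level of at least 1. Cells with Abl1 were 55.7% and 11.9% after thinning and 94.7% and 26.7% at values of 2 or more, in the wild-type and knock-in library. The median r of partner levels with Abl1 was 0.26 over clusters and 0.46 over classes in the wild-type library, and −0.13 and 0.15 in the knock-in library. The cause of these shifts was not tested. No paired analysis was possible because each genotype is 1 pooled library, and for the same reason no replicate could be left out. Leaving out cells with shared barcodes or of unnamed clusters was chosen after seeing the data and gave −2.71 and −2.67 for Abl1. Values are depth-corrected, so sequencing depth sets a limit that cannot be stated.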
